A study of Mus musculus with 2 samples.

Results

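Among the miRNA precursors counted in ischemic mouse hindlimb muscle, 7 were chosen by name because they are enriched in blood leukocytes: miR-142a (mmu-mir-142a in the files), miR-142b (mmu-mir-142b), miR-223 (mmu-mir-223), miR-150 (mmu-mir-150), miR-155 (mmu-mir-155), miR-147 (mmu-mir-147) and miR-511 (mmu-mir-511). All 7 were found among the 1187 listed precursors, and they stand for 6 loci, since the hairpins of miR-142a and miR-142b overlap. The hypercholesterolemic library (HC) came from ApoE-/- mice that had received a high fat diet. The normocholesterolemic control library (NC) came from C57Bl/6 mice labelled control for genotype. Both came from hindlimb muscle collected 1 day after the femoral artery had been removed, so ischemia was common to both and no unoperated muscle was analysed here. The comparison asks which miRNAs of ischemic muscle differ with hypercholesterolemia.

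Each group was 1 library. The sources used here do not give the number of mice behind a library, their age, the diet of the NC mice or the background strain of the ApoE-/- mice. Genotype, diet and library cannot be told apart, no spread between animals could be estimated, and no test was run. Intervals below are 95% intervals of counting error only and describe these 2 libraries. The HC library held 31198050 counts over precursors and the NC library 43848576. Levels are given as CPM, counts per 1000000 of a library size scaled by the trimmed mean of M-values (TMM). Among the skeletal muscle markers, 9 of 9 had counts in both libraries, and the most abundant, miR-133a-1, had 65127 CPM in HC and 65383 CPM in NC.

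A miRNA is cut from a hairpin precursor into a mature strand that guides Argonaute proteins to messenger RNAs, largely through the seed, bases 2 to 8 of the strand. The members differ in the leukocytes that hold them. miR-142 is made by nearly all blood lineages. miR-223 is a myeloid miRNA, most abundant in neutrophils, and in mice it restrains granulocyte production and activation. miR-150 accumulates in mature B and T lymphocytes and in mice represses Myb. miR-155 is induced when macrophages and lymphocytes are activated, miR-147 is induced through Toll-like receptors in mouse macrophages, and miR-511 is made with the mannose receptor of tissue macrophages. Injured muscle is entered first by neutrophils and then by monocytes and macrophages.

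The mature strands that RefSeq gives for these loci (build GRCm38.p6) are shown because the seed guides a strand to its targets, with the seed in capitals, written 5′ to 3′. The table held 10 mature strands for the 7 precursors; miR-150-5p, miR-147-3p and miR-511-5p are named only. The counts sum both arms of a hairpin, so no value below belongs to 1 strand.
miR-142a-3p: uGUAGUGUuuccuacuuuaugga
miR-142a-5p: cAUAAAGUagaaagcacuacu
miR-142b: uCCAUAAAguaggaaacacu
miR-223-3p: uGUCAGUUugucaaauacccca
miR-223-5p: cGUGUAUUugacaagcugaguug
miR-150-3p: cUGGUACAggccugggggauag
miR-155-5p: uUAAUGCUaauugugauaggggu
miR-155-3p: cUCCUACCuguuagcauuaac
miR-147-5p: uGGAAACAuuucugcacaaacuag
miR-511-3p: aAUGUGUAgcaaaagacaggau

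These 10 strands carry 10 distinct seeds, and none of those seeds was found in another mature mouse miRNA of the same RefSeq table. The seeds of the 3 strands that are named only were not compared.

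The hairpins of miR-142a and miR-142b are shown because their counts cannot be separated. miR-142a lies on the plus strand at chr11:87756864-87756927 and miR-142b on the minus strand at chr11:87756841-87756955, in the mm10 coordinates of the files. The whole miR-142a hairpin is contained, in reverse complement, in the longer miR-142b hairpin. The capitals mark the 20 bases over which mature miR-142b is the reverse complement of miR-142a-3p, at bases 4 to 23 of miR-142a-3p.
miR-142a hairpin: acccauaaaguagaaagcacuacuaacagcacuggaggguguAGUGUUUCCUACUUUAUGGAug
miR-142b hairpin: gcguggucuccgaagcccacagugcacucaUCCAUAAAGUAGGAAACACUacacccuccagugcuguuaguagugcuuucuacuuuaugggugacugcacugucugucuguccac

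miR-142a had 58304 counts in HC and 74122 counts in NC. miR-142b had 58339 counts in HC and 74152 counts in NC. The longer hairpin thus held 35 more counts in HC and 30 more in NC, which is 0.0600% of its counts in HC and 0.0405% in NC. Hairpins on opposite strands held almost the same counts, and the 2 are given from here on as 1 locus, represented by miR-142a.

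The pan-leukocyte miR-142 was the most abundant member and had nearly the same level in both libraries. In GENCODE M21 it overlaps its own noncoding host gene, Mir142hg, none of whose exons contains the whole hairpin. Its level was 1784 CPM in HC (1769 to 1798) and 1771 CPM in NC (1758 to 1784). It stood at rank 47 among the precursors of HC and at rank 46 in NC. The log2 fold of HC over NC was 0.01 (-0.01 to 0.03), so the intervals of the libraries overlapped and no difference was detectable at this depth under this scaling.

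The neutrophil-enriched miR-223 was higher in HC. It lies at chrX:96242817-96242926 on the plus strand, within an exon of the noncoding transcript F630028O10Rik, and 4277 bases from the nearest protein-coding gene, Vsig4. It had 11122 counts in HC and 10502 counts in NC, in spite of the smaller HC library. Its level was 340.3 CPM in HC (334.0 to 346.7) and 250.9 CPM in NC (246.1 to 255.8), and these intervals did not overlap. The fold was 1.36 (1.32 to 1.39), a log2 fold of 0.44 (0.40 to 0.48). It stood at rank 92 in HC and rank 103 in NC.

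The lymphocyte miRNA miR-150 was lower in HC. It lies at chr7:45121757-45121821 on the plus strand, outside other annotated genes. It had 4627 counts in HC and 9946 counts in NC. Its level was 141.6 CPM in HC (137.5 to 145.7) and 237.6 CPM in NC (233.0 to 242.3), again without overlap. It was 1.68-fold lower in HC (1.62 to 1.74), a log2 fold of -0.75 (-0.80 to -0.70). It stood at rank 119 in HC and rank 104 in NC, next to miR-223 in the NC order.

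The activation-induced miR-155 had close levels in both libraries. It lies at chr16:84714140-84714204 on the plus strand, within an exon of its host transcript Mir155hg. It had 1231 counts in HC and 1632 counts in NC. Its level was 37.7 CPM in HC (35.6 to 39.8) and 39.0 CPM in NC (37.1 to 40.9), and these intervals overlapped. The log2 fold was -0.05 (-0.16 to 0.06), and the interval leaves room for a fold of HC over NC between 0.896 and 1.04.

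The macrophage members miR-511 and miR-147 were scarce. miR-511 lies at chr2:14261003-14261081 on the plus strand and overlaps Mrc1, which encodes the macrophage mannose receptor. No exon of Mrc1 contains the whole miR-511 hairpin. miR-511 had 344 counts in HC and 380 counts in NC, or 10.5 CPM (9.44 to 11.7) in HC and 9.08 CPM (8.19 to 10.04) in NC. Its log2 fold of 0.21 (-0.00 to 0.43) did not exclude equality. miR-147 lies at chr2:122640803-122640881 on the plus strand, in an exonic untranslated region of AA467197. It had 83 counts in HC and 83 counts in NC, or 2.54 CPM (2.02 to 3.15) in HC and 1.98 CPM (1.58 to 2.46) in NC. Its log2 fold was 0.36 (-0.10 to 0.81), an interval too wide to show a direction. With plain library totals in place of the trimmed mean, the intervals of both lay above 0, at log2 folds of 0.35 for miR-511 and 0.49 for miR-147. That of miR-511 also lay above 0 with DESeq2 size factors (0.22) and with totals without the 10 most abundant precursors (0.23), but not with the authors' denominators (0.10).

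**Figure D1:**
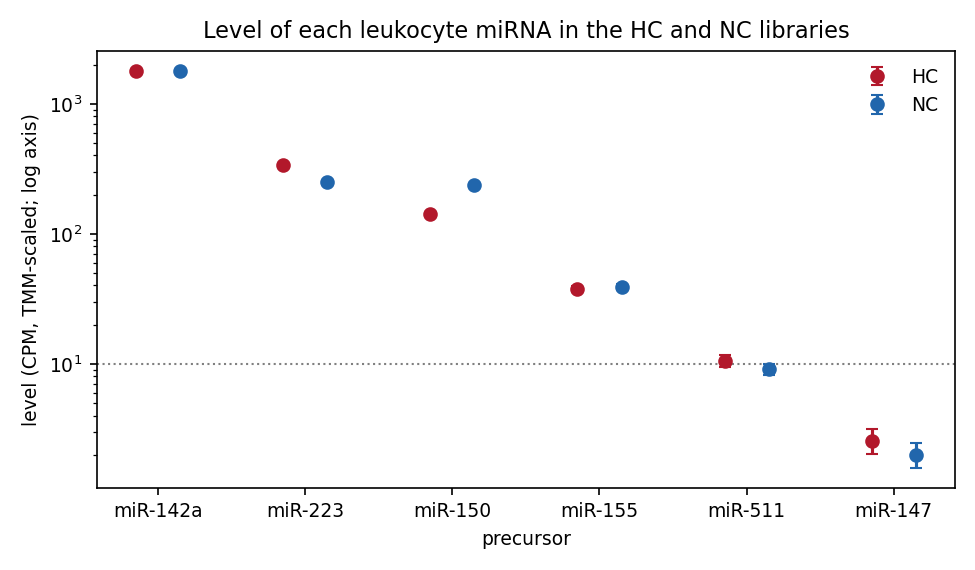
Level of each leukocyte locus in CPM on a log axis, with HC in red at the left and NC in blue at the right of each pair; bars are 95% counting intervals, hidden by the points where narrow, and the dotted line marks 10 CPM. miR-223 is higher in HC (340.3 against 250.9 CPM), miR-150 is lower in HC (141.6 against 237.6 CPM), and miR-142 and miR-155 are nearly level.

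The order of levels was the same in HC and in NC, with miR-142 first and then miR-223, miR-150, miR-155, miR-511 and miR-147. Within each library the counting intervals of neighbours in this order did not overlap. A small RNA read spans a mature strand, so its count does not grow with the hairpin, and ligation of adapters differs between sequences. Divided by hairpin length, which runs from 64 bases for miR-142a to 110 for miR-223 among the 6, miR-223 had 309.4 CPM per 100 bases in HC and 228.1 in NC. miR-150, with 65 bases, had 217.8 CPM per 100 bases in HC and 365.6 in NC. On the length scale the order of miR-223 and miR-150 thus stayed the same in HC and was turned round in NC. Because a count does not grow with the hairpin, this reversal is not read as a difference in amount.

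Of the 1187 precursors, 222 had a mean of at least 10 CPM and were compared. Of the members, 4 of 6 loci passed that limit, miR-511 lay just below it at a mean of 9.80 CPM and miR-147 at 2.26 CPM. At a fold of at least 2 with a counting interval that excludes equality, 0 of the 4 compared loci were higher in HC, against a background of 1.35% of compared precursors, and 0 were lower, against 0.901%. At a fold of at least 1.5, 0 were higher, against 2.7%, and 1 was lower, against 4.5%; that locus was miR-150. By the interval alone, 1 locus lay above equality (background 39.6%) and 1 below (43.7%), so these counts set the members apart from nothing. The compared loci had a median log2 fold of -0.02, and all compared precursors had one of -0.00074.

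The positions of miR-223 and miR-150 within the whole distribution were on opposite sides. The central 90% of compared precursors lay between log2 folds of -0.47 and 0.47. miR-223 lay inside that range, with 16 of 222 precursors at a larger fold. miR-150 lay outside it, with 4 of 222 at a lower one. miR-142 and miR-155 lay within the interquartile range, which ran from -0.16 to 0.18.

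**Figure D2:**
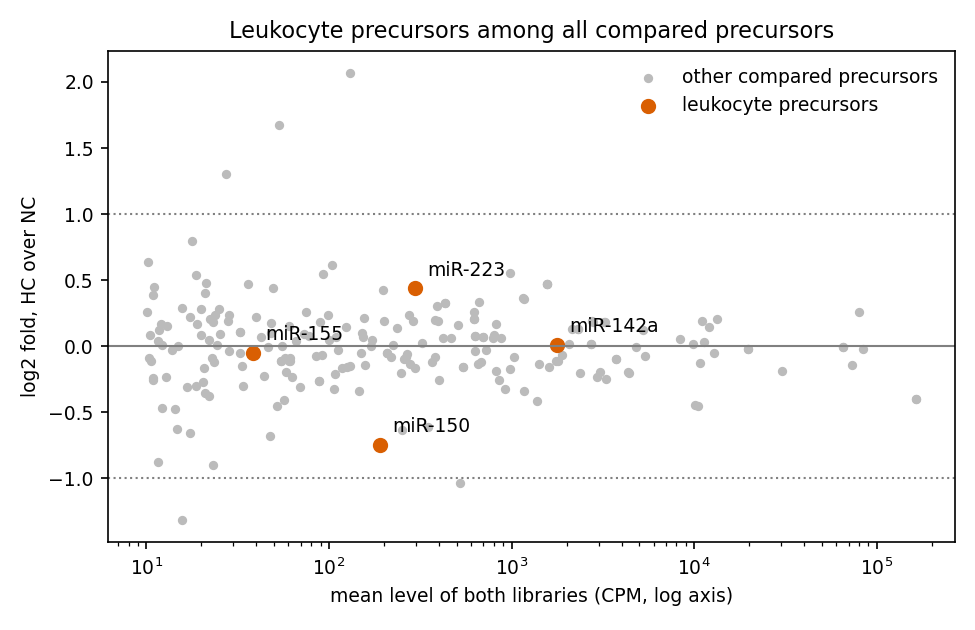
Log2 fold of HC over NC against the mean level in CPM (log axis) for the 222 compared precursors, with the compared leukocyte loci in orange and 2-fold differences as dotted lines; miR-142b, whose counts almost equal those of miR-142a, is hidden behind it. miR-223 at 0.44 and miR-150 at -0.75 lie on opposite sides of 0, and neither reaches a dotted line.

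By the rule for likeness, the smallest distance in log2 fold over these 2 libraries, miR-223 was nearest to miR-335 (0.44) and miR-7a-1 (0.45). miR-150 was nearest to miR-183 (-0.68) and to the epithelial miR-205 (-0.66). miR-142 was nearest to miR-195a (0.01) and miR-615 (0.01), and miR-155 to miR-27b (-0.05) and miR-107 (-0.05). With 2 libraries this likeness rests on a single difference for each precursor.

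Under TMM scaling the summed level of the 6 loci was nearly the same in both libraries, but the shares of miR-223 and miR-150 within the sum differed. The sum was 2317 CPM in HC and 2309 CPM in NC, a log2 fold of 0.00 (-0.01 to 0.02). Without TMM scaling it was 0.243% of all precursor counts in HC and 0.220% in NC. Plain totals move the fold of the sum by 0.13 and the authors' denominators by -0.11, so the sum has no firm direction. Of the summed counts, miR-142 took 77.0% in HC (exact Clopper-Pearson interval 76.7 to 77.3) and 76.7% in NC (76.4 to 76.9). miR-223 took 14.7% in HC (14.4 to 14.9) and 10.9% in NC (10.7 to 11.1). miR-150 took 6.11% in HC (5.94 to 6.28) and 10.3% in NC (10.1 to 10.5). The shares of miR-223 and miR-150 were thus near each other in NC and apart in HC. miR-155 took 1.63% in HC (1.54 to 1.72) and 1.69% in NC (1.61 to 1.77), and miR-511 and miR-147 together the small remainder.

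A ratio of 2 miRNAs inside 1 library does not depend on how the libraries are scaled, and 6 such ratios were formed among miR-142, miR-223, miR-150 and miR-155. The ratio of miR-223 to miR-150, a myeloid over a lymphoid miRNA, was 2.40 in HC and 1.06 in NC. It was therefore 2.28-fold higher in HC (2.18 to 2.38). The ratio of miR-142 to miR-150 was 12.6 in HC and 7.45 in NC, 1.69-fold higher in HC (1.63 to 1.75). The ratio of miR-223 to miR-142 was 0.191 in HC and 0.142 in NC, 1.35-fold higher in HC (1.31 to 1.39). Set against the pan-leukocyte miR-142 in the same library, miR-223 was thus higher in HC and miR-150 lower.

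The remaining ratios used miR-155. For each of the 6 ratios, the fold of HC over NC follows from the folds of its loci given above. The ratio of miR-155 to miR-150 was 0.266 in HC and 0.164 in NC, 1.62-fold higher in HC (1.49 to 1.76). The ratio of miR-223 to miR-155 was 9.03 in HC and 6.44 in NC, 1.40-fold higher in HC (1.30 to 1.52). The ratio of miR-142 to miR-155 was 47.4 in HC and 45.4 in NC, and its fold of 1.04 (0.967 to 1.12) did not exclude equality. The 6 ratios share members and are not independent of each other. Of the 6 pairs, 1 differed at least 2-fold, against 5.17% of all 24531 pairs of compared precursors, and 3 differed at least 1.5-fold, against 16.5%. The pairs were formed from loci whose folds were already known, so nothing further is read from these counts.

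**Figure D3:**
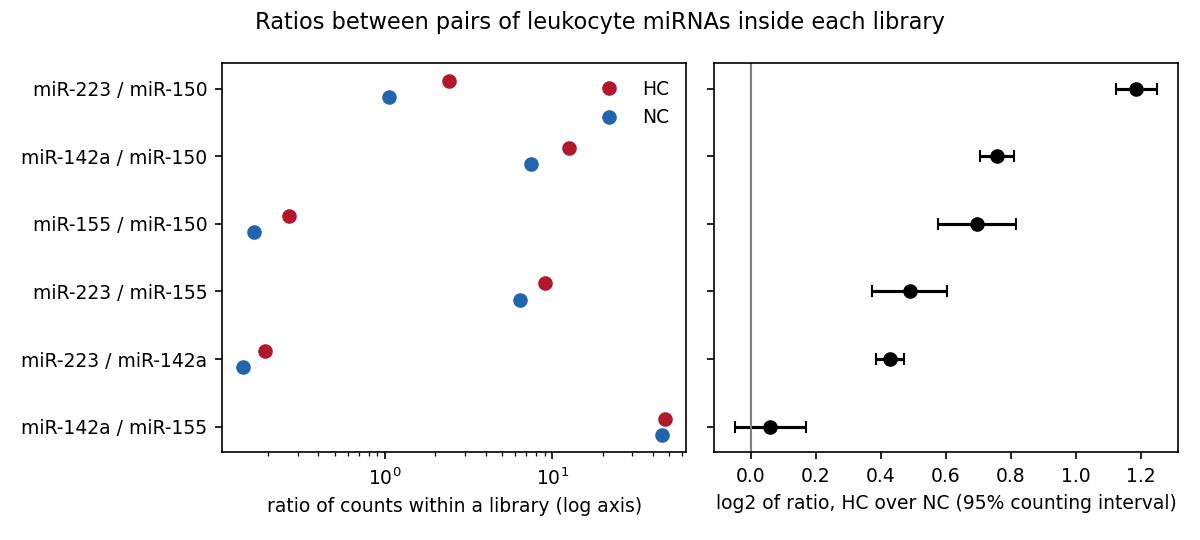
Left, ratio of counts of each pair within a library on a log axis, HC in red above NC in blue; right, log2 of the HC ratio over the NC ratio with 95% counting intervals. The pair of miR-223 and miR-150 stands farthest from 0, at 2.28-fold, and the pair of miR-142 and miR-155 has an interval that holds 0.

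The scaling of the libraries set how large the folds of single loci were, though not the direction of miR-223 and miR-150. Under the trimmed mean and 4 other scalings, the log2 fold of miR-223 ran from 0.33 to 0.57 and that of miR-150 from -0.86 to -0.61. The authors' own denominators gave the lowest values and plain totals the highest. The sign of miR-142 (-0.10 to 0.14) and of miR-155 (-0.16 to 0.08) changed within the same set, and these loci have no firm direction.

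**Figure D4:**
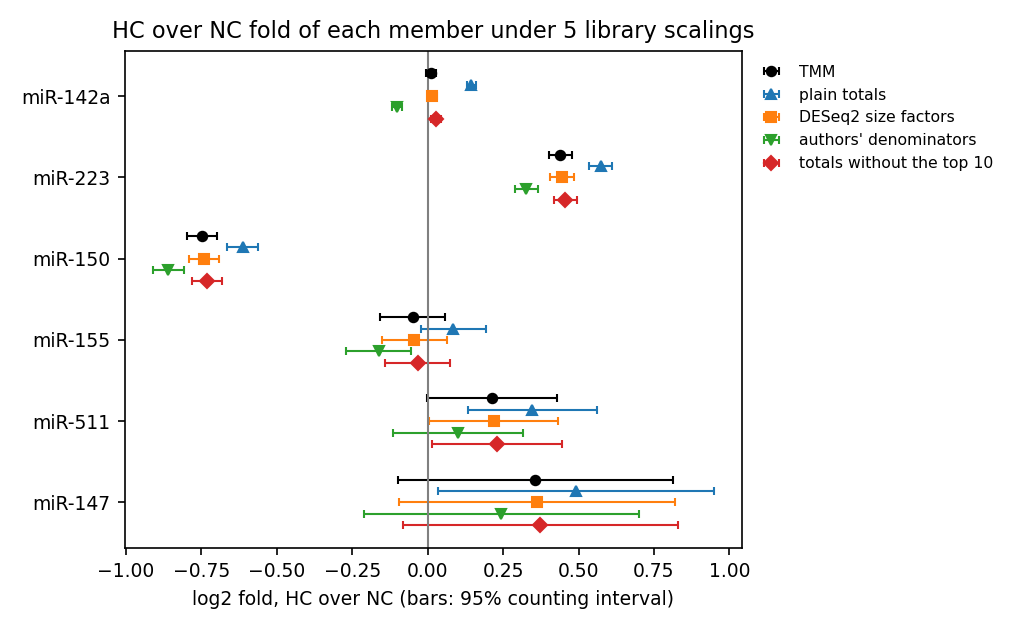
Log2 fold of HC over NC for the 6 loci under 5 library scalings, with 95% counting intervals. miR-223 stays above 0 and miR-150 below 0 under each of the 5 scalings, while miR-142 and miR-155 fall on both sides.

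Other miRNAs known from leukocytes did not share 1 direction. Of the 12 precursors of a list of miRNAs that respond to Toll-like receptor signalling, 7 were compared, 2 with an interval above 0 and 5 below (39.6% and 43.7% of all compared precursors), and the median log2 fold was -0.04. miR-21a, induced in inflamed tissue, had 5210 CPM in HC and 5489 CPM in NC (log2 fold -0.08). miR-146b, a feedback inhibitor of NF-kB signalling, had 1176 CPM in HC and 1566 CPM in NC (-0.41). miR-125a (-0.19) and miR-125b-2 (-0.03) were the next most abundant. The 2 with an interval above 0 were miR-146a at 0.14 (0.09 to 0.18) and miR-132 at 0.19 (0.07 to 0.32), so miR-146a and miR-146b had opposite signs. miR-125b-1, another copy of miR-125b, lay at -0.04, so the 7 are fewer measurements. With plain totals, which move the median of all compared precursors to 0.13, the list's median was 0.10. The split was then 5 above and 2 below, and that of all compared precursors was not counted under this scaling. Since a scaling moves all log2 folds alike, the list's place relative to the median of all precursors cannot differ between scalings.

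Of the 14 precursors of a list of miRNAs from lymphocyte development, 12 were compared, with a median log2 fold of 0.03. An interval above 0 was found for 5 and below 0 for 5, near the 39.6% and 43.7% of all compared precursors. Those above were miR-181a-1, miR-181a-2, miR-181b-1, miR-181b-2 and miR-342. Those below were miR-92a-1, miR-181c (-0.26), miR-181d (-0.23), miR-19b-1 (-0.26) and miR-19a (-0.24), so the miR-181 family had both signs. The copies of miR-181b held nearly equal counts and those of miR-181a close counts. The 12 are thus fewer measurements, and the split and median count copies separately. miR-181a, which tunes T cell receptor signalling in mice, was the most abundant, at 12623 CPM in HC and 11399 CPM in NC for miR-181a-2 (0.15), and at 11742 CPM in HC and 10288 CPM in NC for miR-181a-1 (0.19). miR-92a-1 of the miR-17-92 cluster had 2994 CPM in HC and 3551 CPM in NC (-0.25). miR-181b-2 had 1313 CPM in HC and 1023 CPM in NC (0.36). None of the compared members of these lists reached the log2 fold of miR-150. The list members are also expressed outside leukocytes, so their values do not count lymphocytes.

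The level of a miRNA in whole muscle can follow the number of cells that hold it or the amount in each cell, and fewer cells of a type and less RNA per cell cannot be told apart here. Markers of other cells also differed between the libraries. Of the 5 erythrocyte markers, 3 had an interval above 0 and 2 below, where 39.6% and 43.7% of all compared precursors did. The 5 are fewer measurements, since miR-451a and miR-451b hold equal counts, as do miR-486a and miR-486b. miR-144 had 125.4 CPM in HC and 81.8 CPM in NC (0.62), and miR-451a 483.4 CPM in HC and 386.1 CPM in NC (0.32), both higher in HC like miR-223. miR-486a and miR-486b, also abundant in muscle, lay at -0.40.

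Of the 7 epithelial markers, 5 were compared and 5 had an interval below 0, lower in HC like miR-150 and like 43.7% of all compared precursors, with a median of -0.62, and the 7 had a summed level of 139.5 CPM in HC and 187.8 CPM in NC. Of the 9 skeletal muscle markers, 5 had an interval above 0 and 4 below, where 39.6% and 43.7% of all compared precursors did. Their median log2 fold was 0.47. The copies of miR-1 held nearly equal counts, as did those of miR-133a, so the 9 are fewer measurements. That median is the value of miR-1a-1 and depends on counting its copies, so it is not ranked against miR-223. miR-1a-1 (0.47, with miR-1a-2 and miR-1b inseparable from it), miR-208b (0.55) and miR-499 (0.63) were higher in HC like miR-223, while miR-133a-1 (-0.01), miR-206 (-0.09) and miR-133b (-0.20) were not. Their summed level, in which copies of miR-1 and miR-133a count separately and miR-133a makes up most, was 138090 CPM in HC and 137387 CPM in NC. The endothelial miR-126a (0.03), the fibroblast miR-199a-1 (0.13) and the smooth muscle miR-143 (-0.14) differed by less than miR-1a-1, miR-208b and miR-499. No marker of these lists was at 0 in either library. The part of blood, skin, muscle or other tissue in the values of miR-223 and miR-150 was not tested.

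**Figure D5:**
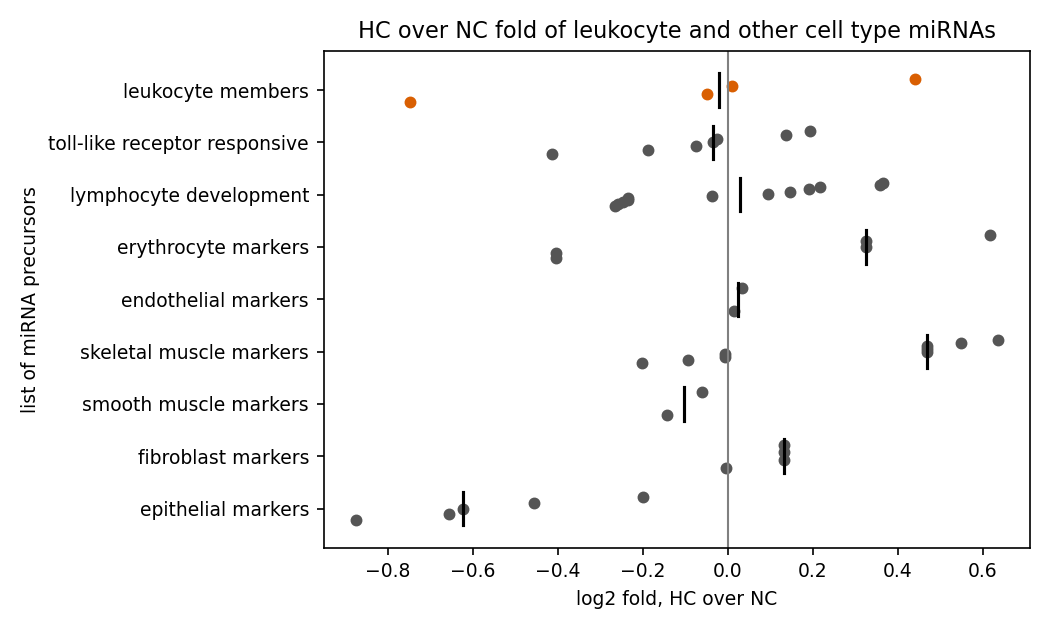
Log2 fold of HC over NC for the compared precursors (points) of each list, with the list median as a black line; the leukocyte loci are in orange, and points are spread vertically only to separate them. The leukocyte loci run from miR-150 at -0.75 to miR-223 at 0.44, and the epithelial markers lie below 0. In the other lists, copies of a miRNA are separate points and count separately in the medians.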

How the data were processed

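Small RNA libraries were made with the Illumina TruSeq small RNA kit after Trizol and mirVana extraction, per the labels' protocols. The deposited counts are whole-number read counts per precursor; HTSeq 0.5.4, TopHat2 2.0.10, CASAVA 1.8.2 and mm10 stand in the submitters' processing notes. How adapters were trimmed and how reads with several alignments were treated was not stated in these sources. The summary counts for ambiguous and for not uniquely aligned reads were 0 in both libraries. Some overlapping precursors held equal counts, as miR-486a and miR-486b with 4626450 each in HC and 7839973 each in NC. A read may thus have been counted more than once, also in the totals and in percentages made from them. The column headed RPM by the authors was used as a signal: it is the count divided by 27222821 in HC and 32252170 in NC, sums to over 1000000, and served only as an alternative scaling. The 5 summary rows, with 39620970 counts in HC and 34643677 in NC outside precursors (55.9% and 44.1% of all listed counts), stayed out of library sizes.

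The members, lists and rules were chosen with earlier results of these data known. Counts were scaled with edgeR 4.0.16 (TMM, R 4.3.3), without an edgeR test; DESeq2 1.42.0 size factors were an alternative. Folds have exact conditional binomial (Clopper-Pearson) intervals, and ratios of ratios exact conditional intervals of a 2 by 2 table (scipy 1.17.1). Since reads carried no molecular identifiers, they are not independent molecules, and intervals cover only counting error. All 7 members were named, with the 2 compared precursors nearest in log2 fold for each compared locus. The 4 most abundant of each other leukocyte list were named too. Values of markers and of further list members were added outside these rules. Annotation came from GENCODE M21 (GRCm38, the assembly of mm10), and the functions were tested on simulated counts.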

Additional observations from a re-analysis of the deposited data

Results flagged for a closer look

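Counts outside every miRNA precursor formed a larger part of the listed counts in HC than in the control library, with 55.9% in HC and 44.1% in NC. They entered no comparison of the leukocyte miRNAs, and their part in the folds was not tested.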

How the results depend on the processing

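No paired analysis was possible because each group held 1 library, and no library could be left out. The ratios between members do not depend on scaling, and with miR-142b in place of miR-142a the 3 ratios that use it and the fold of the locus stayed within their counting intervals. With plain totals the log2 folds were 0.14 for miR-142a, 0.57 for miR-223, -0.61 for miR-150 and 0.084 for miR-155. With the authors' denominators they were -0.10, 0.33, -0.86 and -0.16. Leaving the 10 most abundant precursors out of the totals put miR-142a at 0.027. These shifts follow from the scaling itself, which moves the log2 folds of all precursors by 0.13 with plain totals and by -0.11 with the authors' denominators.

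Precursors at least 2-fold higher in HC numbered 3, against 8 with a filter at 1 CPM, 20 without a filter and 6 at the 1.5-fold limit. Those at least 2-fold lower numbered 2, against 1 with plain totals, 5 with a filter at 1 CPM, 1 at 50 CPM, 15 without a filter and 10 at the 1.5-fold limit. In the Toll-like receptor list, 5 lay above 0 and 2 below with plain totals, where the median turned to 0.10. With the authors' denominators 0 lay above and the median was -0.15, and without the 10 most abundant 3 lay below. With a filter at 1 CPM and without a filter 4 lay above and 8 below, since more precursors entered. The inseparable miR-9-1, miR-9-2 and miR-9-3 count separately among these 8. For these other scalings and filters, the shares of all compared precursors above and below 0 were not counted. The splits are therefore not read against a background. The median of the lymphocyte list was 0.16 with plain totals and -0.084 with the authors' denominators. Depth limits miR-147 most, with 83 counts in each library.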

Other observations

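The nearest listed precursor to a member on the same chromosome was miR-5121, 5.10 kb from miR-150, with 393 counts in HC and 100 in NC. Its log2 fold of 2.33 (2.01 to 2.66) had the opposite sign to that of miR-150. It lay below the limit for comparison, at 12.02 CPM in HC and 2.39 CPM in NC, and was named after its value was seen.

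Among the precursors of the Toll-like receptor list below the limit of 10 CPM, chosen after their values were seen, miR-9-1 had 162 counts in HC and 347 in NC, a log2 fold of -0.74 (-1.02 to -0.47). miR-9-2 and miR-9-3 had almost the same counts and cannot be separated from it. miR-212 had 249 counts in HC and 257 in NC, a log2 fold of 0.31 (0.05 to 0.57).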
